A study of Homo sapiens with 6 samples.

Results

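The genes examined here write, read and erase DNA methylation: the methyltransferases DNMT1, DNMT3A and DNMT3B, the maintenance cofactor UHRF1, the dioxygenases TET1, TET2 and TET3, and the methyl-CpG reader MBD2. They were picked by gene symbol, through the Ensembl identifiers of the deposited table, and are 8 of its 58884 genes. All 8 passed the filter on low counts, which left 16059 genes to be tested. RNA-seq was performed on DLD1 cells, a colorectal cancer line, in 3 libraries of parental cells and 3 libraries of p85βKR-AA cells. The p85βKR-AA cells carry a CRISPR/Cas9 knock-in of K477A and R478A in p85β (encoded by PIK3R2), a regulatory subunit of PI3K, and both kinds of cell carry the PIK3CA E545K mutation of DLD1. The mutated residues lie in a nuclear localization sequence, so the comparison asks what changes in RNA when p85β is kept out of the nucleus. The study describes a pair of independently derived homozygous knock-in clones, and the labels of the libraries do not say which clone each came from. Nor do they say whether replicates were separate cultures, so p-values measure the spread between these libraries, which may be technical.

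Cytosines next to guanines are methylated de novo by DNMT3A and DNMT3B, and the pattern is copied after replication by DNMT1, which UHRF1 recruits to hemimethylated DNA. TET enzymes oxidize 5-methylcytosine to 5-hydroxymethylcytosine and further, which leads to loss of the mark by base excision repair or by dilution at replication. MBD2 binds methylated CpG and brings the NuRD chromatin remodelling and deacetylase complex with it. In colorectal cancer, CpG islands of many promoters gain methylation while the genome as a whole loses it. RNA levels of these genes say nothing direct about methylation, which was not measured in these libraries.

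The libraries held 20301396 to 26712816 estimated counts, and 3 counts were worth 0.0818 to 0.219 CPM. CPM here are counts relative to a library size scaled by TMM, edgeR's correction for differences in RNA composition, and TMM factors were 0.677 to 0.777 in parental and 1.35 to 1.41 in p85βKR-AA libraries. Of 15 colon epithelium markers, 14 had at least 10 counts in every library of both groups, and CDX1 was near 0 in both. Of the 14 tested, 2 rose and 7 fell (fold change of at least 3 and adjusted p under 0.01, edgeR). The summed level of all 15 was 57970 to 80080 CPM in parental and 9004 to 10520 CPM in p85βKR-AA libraries. It was mostly that of the keratins KRT8, KRT18 and KRT19, which fell. The adhesion genes CDH1 (97.3 ± 33.8 to 344 ± 20.2 CPM, SD, n = 3) and CDH17 (6.60 ± 1.81 to 28.5 ± 1.94 CPM) rose. With length and GC offsets 0 of the 14 rose and 3 fell, so neither CDH1 nor CDH17 was called. Of 16 mesenchymal markers, 3 had at least 10 counts in every parental library and 11 in every p85βKR-AA library. Their summed level was 7.72 to 10.6 CPM against 6340 to 7246 CPM, and the latter was mostly FN1 (4992 ± 408 CPM) and VIM (1772 ± 70.1 CPM). Of the 11 tested, 9 rose and 0 fell, and 7 rose with length and GC offsets. TWIST1, COL1A2, SPARC, THY1 and PDGFRA were at or near 0 in both groups and were not tested. Of 12 neuron markers, 5 were tested, 3 rose and none fell by the same rule. TUBB3, at 561 ± 43.96 and 211 ± 11.4 CPM, made their sum lower in p85βKR-AA libraries (343 to 365 against 522 to 610 CPM). With length and GC offsets 2 of the 5 rose, and their median log2 fold change was 0.05 in place of 2.73. The neurofilament gene NEFL had no counts in parental libraries and 131.5 ± 1.97 CPM in p85βKR-AA libraries, at least 602-fold higher with a floor of 3 counts per library. The 10 blood markers summed to 55.4 to 72.3 and 38.7 to 47.3 CPM, and none of the 3 tested was called. Of 8 chromosome Y genes, all tested, 6 rose and none fell, with a median log2 fold change of 3.26, and 2 had no count in any parental library. Of these, 3 rose with length and GC offsets, and the median was then 0.65. The part of these differences in the results below was not tested. The knock-in and any difference in the origin of the cultures cannot be told apart in this design, and in such bulk RNA fewer cells of a kind and less RNA per cell cannot be told apart. Fold changes also went up with gene length over the whole transcriptome. Genes under 2000 bases had a median log2 fold change of -0.86, those from 2000 to under 4000 bases 0.24, those from 4000 to under 8000 bases 1.45 and those of 8000 bases or more 2.41. These values bear on the members, because the TET genes are the longest of the 8.

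The upstream sequences of the 3 TET genes are shown first, since these are the members that rose. They are 250 bases up to the first annotated start of each gene, from RefSeq (GRCh38.p14, plus strand), with each CpG in capitals: TET1 at chr10:68560087-68560336, TET2 at chr4:105145625-105145874 and TET3 at chr2:73984660-73984909.
TET1: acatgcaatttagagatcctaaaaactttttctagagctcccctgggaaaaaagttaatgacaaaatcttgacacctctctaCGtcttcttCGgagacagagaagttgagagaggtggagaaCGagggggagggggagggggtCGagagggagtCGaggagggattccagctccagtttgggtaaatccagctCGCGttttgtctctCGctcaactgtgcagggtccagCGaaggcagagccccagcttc
TET2: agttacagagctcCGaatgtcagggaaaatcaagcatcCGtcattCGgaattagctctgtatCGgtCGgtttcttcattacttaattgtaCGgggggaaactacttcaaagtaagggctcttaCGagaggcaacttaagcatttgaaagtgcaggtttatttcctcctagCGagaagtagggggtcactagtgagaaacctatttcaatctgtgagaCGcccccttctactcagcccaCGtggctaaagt
TET3: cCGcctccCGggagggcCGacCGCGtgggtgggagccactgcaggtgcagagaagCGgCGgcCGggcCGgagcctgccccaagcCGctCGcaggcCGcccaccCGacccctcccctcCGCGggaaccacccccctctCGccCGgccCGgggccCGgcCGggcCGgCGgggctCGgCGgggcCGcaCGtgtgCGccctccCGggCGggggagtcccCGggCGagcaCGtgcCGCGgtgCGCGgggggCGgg
CpG is the dinucleotide that the DNMT and TET enzymes act on. TET1 held 9 and TET2 held 10 in this window, close to the median of 11 over 35116 promoters of the same table, and TET3 held 37, more than 96% of them. A later start of TET2 in the same table had 34. These counts describe the sequence alone.

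TET1, TET2 and TET3 rose in p85βKR-AA cells, and none of the 8 genes fell. A gene was called when its fold change was at least 3 and its adjusted p under 0.01 (edgeR quasi-likelihood test, Benjamini-Hochberg adjustment over 16059 genes). By the same rule 28.6% of all tested genes rose and 17.6% fell, so 3 of 8 is near the share of the transcriptome. The other 5 genes, DNMT1, DNMT3A, DNMT3B, UHRF1 and MBD2, were not called. Of these, UHRF1 was lower and DNMT1 and DNMT3A were higher at an adjusted p under 0.05 (edgeR), without a fold threshold. DESeq2 called the same 3 TET genes up and no member down, beside 26.2% of genes up and 19.3% down.

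TET1 (ENSG00000138336, 9612 bases in the deposited length column, GRCh37 chr10:70320094-70454244) was almost absent from parental cells. Its estimated counts were 1, 0 and 5 in parental replicates 1 to 3, and 90, 86 and 66 in p85βKR-AA replicates 1 to 3, an order kept below. In CPM these were 0.0664, 0 and 0.309 against 2.46, 2.99 and 2.41, and the groups did not overlap. The log2 fold change was 4.25 (SE 0.54, adjusted p 1.03e-05, edgeR), and the ratio of the summed counts, scaled to library size, was 19.6 with a 95% interval of 8.85 to 53.8 that covers counting error only. The fold change rested on few parental reads. On the log2 scale it was 6.0 without parental replicate 3, which held 5 of the 6 counts, and 3.71 without parental replicate 2.

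TET2 (ENSG00000168769, 10166 bases, GRCh37 chr4:106067032-106200973), which unlike TET1 and TET3 lacks a CXXC DNA-binding domain, had 16, 2 and 8 counts in parental and 331, 321 and 155 in p85βKR-AA libraries. The levels were 1.06, 0.146 and 0.494 CPM against 9.03, 11.2 and 5.65 CPM, so that the lowest p85βKR-AA library stood above the highest parental one. Among the p85βKR-AA libraries, replicate 3 was the lowest, at 0.505 times replicate 2. TET2 rose with a log2 fold change of 3.89 (SE 0.44, adjusted p 3.27e-06, edgeR), and the scaled ratio of summed counts was 15.1 (95% interval 10.2 to 23.2, counting error only). Without parental replicate 1 the log2 fold change was 4.67.

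TET3 (ENSG00000187605, 11388 bases, GRCh37 chr2:74212037-74335303) was the most abundant of the 3. Its levels were 4.45, 1.31 and 4.195 CPM in parental and 22.5, 24.2 and 24.6 CPM in p85βKR-AA libraries. The p85βKR-AA libraries lay close together, parental replicate 2 was low, and the groups did not overlap. TET3 rose 7.09-fold (log2 fold change 2.83, SE 0.31, adjusted p 2.57e-06, edgeR). All 3 TET genes were called in each of the 6 fits that left out a library.

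**Figure D1:**
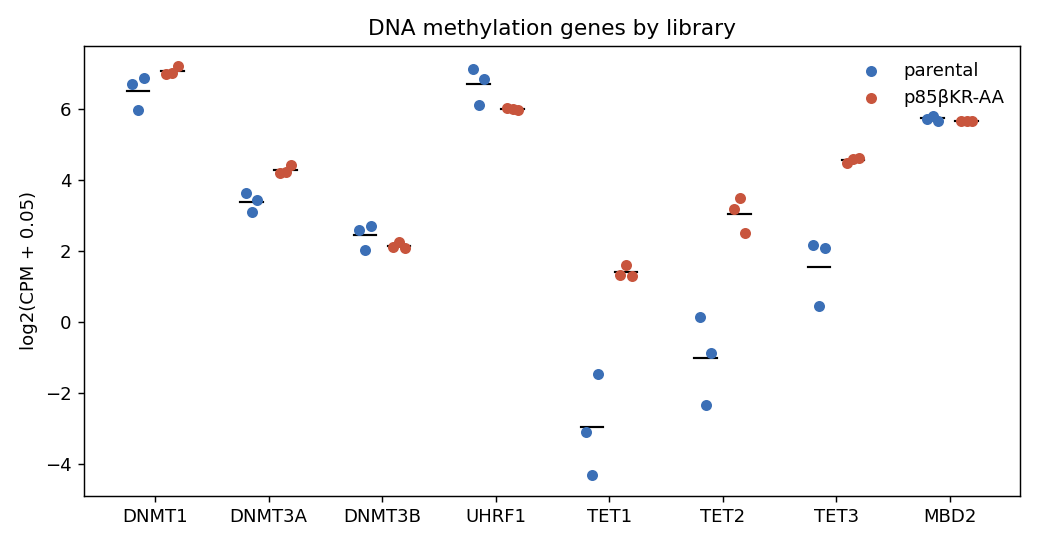
Level of each gene in each library, as log2 of CPM plus 0.05, with parental libraries in blue, p85βKR-AA libraries in red and black bars at the mean of 3 libraries. The TET genes are separated by the widest gaps, from 0 to 0.309 CPM up to 2.41 to 2.99 CPM for TET1, while MBD2 sits between 50.8 and 55.9 CPM in all 6 libraries.

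Set against genes of like length, the TET genes stood less far out. Among the 1013 tested genes of 8000 bases or more, 65.4% rose and 1.88% fell, and 13.4% had a larger log2 fold change than TET1, 18.0% than TET2 and 40.4% than TET3. With offsets that take out the trend with length in each library, TET1 (2.11, SE 0.58, adjusted p 0.0042) and TET2 (1.65, SE 0.41, adjusted p 0.00186) were still called by edgeR, and TET3 was not (0.50, SE 0.26, adjusted p 0.0932), beside 18.7% of all genes that rose in that fit. With offsets for length and GC content the calls changed places. TET3 was called (1.86, SE 0.20, adjusted p 7.34e-06, edgeR), while TET1 (1.504, adjusted p 0.0416) and TET2 (1.02, adjusted p 0.0453) were not, beside 13.8% of genes that rose. The GC content of TET1 and TET2 was 42.1% and 41.8%, and that of TET3 55.8%. The log2 fold changes of all 3 were above 0 in these fits, and no TET gene was called in every one of them.

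DNMT1 (ENSG00000130816, 5274 bases, GRCh37 chr19:10244018-10341962), the maintenance methyltransferase, was at 106, 62.7 and 118 CPM in parental and 129, 130 and 148 CPM in p85βKR-AA libraries. The groups did not overlap, as was so, with higher p85βKR-AA values, for 47% of all tested genes. The fold change of 1.42 (SE 0.20 on the log2 scale, adjusted p 0.0303, edgeR) was under the fold threshold, and the log2 value was -0.82 with length offsets. S1PR2, a receptor gene annotated on the same strand within the span of DNMT1, had a mean of 92.7 and 152 counts in the groups, against 861 to 4718 counts of DNMT1 in a library.

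UHRF1 (ENSG00000276043, 3965 bases, GRCh37 chr19:4903092-4962165), which reads hemimethylated CpG and recruits DNMT1, went the other way. Its levels were 141, 69.7 and 116 CPM in parental and 65.4, 64.8 and 63.4 CPM in p85βKR-AA libraries. All p85βKR-AA libraries were below the lowest parental library, though close to parental replicate 2, and 36.5% of tested genes had groups apart in that direction. The level in parental cells was 1.69 times that in p85βKR-AA cells (log2 fold change -0.75, SE 0.20, adjusted p 0.00425, edgeR), under the fold threshold. The log2 value was 0.16 when libraries were scaled by their totals. With length offsets it was -1.565 (adjusted p 4.75e-06, edgeR), just under the fold threshold, and with length and GC offsets -0.39. Its estimated counts were not whole in 4 of 6 libraries, as happens when reads also match other annotated sequences.

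DNMT3A (ENSG00000119772, 4279 bases, GRCh37 chr2:25450724-25565459), a de novo methyltransferase, was at 12.4, 8.59 and 10.7 CPM in parental and 18.6, 18.9 and 21.4 CPM in p85βKR-AA libraries. The groups did not overlap, and the fold change was 1.85 (SE 0.18 on the log2 scale, adjusted p 5.70e-04, edgeR). It was under the fold threshold, passed it with library totals (log2 1.805), and was -0.07 on the log2 scale with length offsets. DNMT3B (ENSG00000088305, 4336 bases, GRCh37 chr20:31350191-31397165), the other de novo enzyme, was at 6.04, 4.08 and 6.48 CPM against 4.26, 4.77 and 4.19 CPM. Its groups overlapped, since parental replicate 2 lay below all p85βKR-AA libraries (log2 fold change -0.33, SE 0.23, adjusted p 0.189, edgeR, and 0.58 with library totals). The log2 fold change of DNMT3B was -1.31 with length offsets (adjusted p 6.03e-05, edgeR) and -0.45 with length and GC offsets (adjusted p 0.034, edgeR). Without parental replicate 2 it was -0.53 (adjusted p 0.0275, edgeR), and all of these were under the fold threshold.

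MBD2 (ENSG00000134046, 5064 bases, GRCh37 chr18:51677976-51751039) varied least. It was at 53.5, 55.9 and 51.5 CPM in parental and 51.4, 50.8 and 51.5 CPM in p85βKR-AA libraries. The ranges all but met at 51.5 CPM, and the log2 fold change was -0.07 (SE 0.13, adjusted p 0.636, edgeR). This near equality depended on the scaling, with 0.86 for library totals and -1.26 for length and GC offsets. Of the members, it alone was not low in parental replicate 2, where it was 1.07 times the mean of the other parental libraries, against 0.742 for DNMT3A, 0.651 for DNMT3B, 0.560 for DNMT1, 0.544 for UHRF1, 0.303 for TET3, 0.187 for TET2 and no counts for TET1. Without that library the log2 fold changes were 2.43 for TET3, 3.45 for TET2, 0.25 for DNMT1, 0.73 for DNMT3A, -0.53 for DNMT3B and -1.02 for UHRF1, and the same 3 genes were called.

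Without a fold threshold, at an adjusted p under 0.05 (edgeR), the TET genes, DNMT1 and DNMT3A were higher and UHRF1 was lower, beside 45.9% of all tested genes that were higher and 35.7% that were lower. DNMT1 did not pass that threshold in DESeq2 (adjusted p 0.0741) or, in edgeR, without parental replicate 2 (adjusted p 0.0645) or without p85βKR-AA replicate 3 (adjusted p 0.099). Scaling by library totals moved the median of all tested genes by 0.92 on the log2 scale, to 1.241, and DESeq2 moved it by -0.11. With library totals DNMT3A joined the TET genes, so that 4 of 8 rose and none fell, beside 43.9% and 6.06% of all tested genes. Under TMM and under library totals alike, DNMT3B, UHRF1 and MBD2 were below the median of all tested genes and the other 5 were above it. This change of scaling shifts all genes by nearly the same amount, so places relative to the median could hardly have differed.

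Levels were compared between genes as TPM, which divides by gene length. TPM are not scaled by TMM, so they order genes within a group and do not give changes between groups. From parental to p85βKR-AA libraries, MBD2 went from 10.5 to 26.2 TPM but from 53.6 to 51.2 CPM. UHRF1 went from 27.8 to 42.2 TPM but from 109 to 64.5 CPM. In parental cells UHRF1 (27.8 ± 10.8 TPM, SD, n = 3) and DNMT1 (18.4 ± 7.11) came first, followed by MBD2 (10.5 ± 0.662), DNMT3A (2.49 ± 0.625), DNMT3B (1.29 ± 0.410), TET3 (0.300 ± 0.172), TET2 (0.0574 ± 0.0472) and TET1 (0.0140 ± 0.0184). Neighbours overlapped in their libraries for UHRF1 and DNMT1, DNMT1 and MBD2, TET3 and TET2, and TET2 and TET1. In p85βKR-AA cells DNMT1 (66.7 ± 4.16 TPM, SD, n = 3) was above UHRF1 (42.2 ± 1.66), and then came MBD2 (26.2 ± 0.568), DNMT3A (11.9 ± 0.720), TET3 (5.42 ± 0.296), DNMT3B (2.64 ± 0.266), TET2 (2.21 ± 0.771) and TET1 (0.708 ± 0.109). Only DNMT3B and TET2 overlapped there. The maintenance genes and MBD2 were the most abundant in both, and TET3 stood below DNMT3B in parental and above it in p85βKR-AA cells. TET3 has 11388 and DNMT3B 4336 bases, and TPM do not take out the trend of fold change with length. With length offsets their log2 fold changes were 0.50 and -1.31, and with length and GC offsets 1.86 and -0.45. Whether this change of order would remain without that trend was not tested.

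Ratios within a library do not depend on how libraries are scaled, though they can still depend on length and GC content. The 4 computed are given as a description and were not tested, and an exact permutation test of 3 against 3 libraries could not go below 0.1. DNMT3B and DNMT3A are nearly equal in length and, at 54.6% and 54.5%, in GC content. The log2 ratio of DNMT3B to DNMT3A was -1.06, -1.09 and -0.75 in parental and -2.14, -2.01 and -2.37 in p85βKR-AA libraries, so DNMT3A was 1.95 times DNMT3B in the former and 4.51 times in the latter, with no overlap. The log2 ratio of UHRF1 to DNMT1 was 0.82, 0.56 and 0.38 in parental and -0.57, -0.59 and -0.82 in p85βKR-AA libraries. UHRF1 was thus 1.504 times DNMT1 in parental cells and 0.634 times in p85βKR-AA cells, without overlap. With length and GC offsets the log2 fold changes of UHRF1 and DNMT1 were closer to each other, at -0.39 and 0.19, while those of DNMT3B and DNMT3A were -0.45 and 0.77. The log2 ratio of TET3 to TET2 was 2.61 ± 0.61 in parental and 1.36 ± 0.53 in p85βKR-AA libraries (SD, n = 3), and these overlapped. MBD2 and MBD3 form alternative NuRD complexes, and the ratio of MBD2 to MBD3 was 0.152 in parental and 0.769 in p85βKR-AA cells, with no overlap, beside log2 fold changes of -1.26 for MBD2 and -1.98 for MBD3 with length and GC offsets.

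Other genes of the pathway were described from lists by their counts and medians, beside the median of 0.32 for all tested genes. Of 12 cofactors and relatives of the methyltransferases, 10 were tested, 3 rose and 1 fell, with a median log2 fold change of 1.33 that turned to -0.50 with length and GC offsets. The UHRF1 paralog UHRF2 rose from 2.79 ± 0.311 to 20.5 ± 2.61 CPM (SD, n = 3 in each group here and below, log2 fold change 2.88, SE 0.20, adjusted p 4.71e-08, edgeR). USP7, a deubiquitinase that binds DNMT1 and UHRF1, rose from 25.3 ± 4.52 to 103 ± 3.37 CPM (log2 2.03, adjusted p 7.58e-08, edgeR), but was at -0.03 with length and GC offsets. AHCY, which clears the methylation by-product S-adenosylhomocysteine, fell from 1752 ± 257 to 353 ± 37.01 CPM (log2 fold change -2.31, adjusted p 2.41e-08, edgeR), and missed the fold threshold with library totals (-1.38). DNMT3L and DPPA3, germ cell regulators of methylation, were at or near 0 in both. With length and GC offsets UHRF2, USP7 and AHCY were not called, and the single call of the list was TRDMT1, an RNA methyltransferase of the DNMT family, which was lower. Under TMM TRDMT1, of 12918 bases, was higher instead, at 0.706 ± 0.402 and 1.93 ± 0.380 CPM. Its log2 fold change was then 1.47 (adjusted p 0.00577, edgeR), under the fold threshold, so its direction depended on the offsets.

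Among 9 other genes of methyl-CpG reader families, listed as other methyl-CpG readers, all were tested, 4 rose and 1 fell, with a median of 0.94. They were grouped by family, and whether each protein binds methylated CpG was not examined. ZBTB38, a zinc finger protein that binds methylated CpG, rose from 2.02 ± 0.550 to 46.9 ± 8.61 CPM (log2 fold change 4.53, SE 0.24, adjusted p 6.96e-09, edgeR). ZBTB33 (Kaiso) rose from 2.57 ± 1.23 to 12.4 ± 3.10 CPM (log2 2.28, adjusted p 2.68e-05, edgeR), and was at -0.02 with length and GC offsets. MBD3 fell from 398 ± 59.4 to 74.8 ± 5.84 CPM (log2 fold change -2.41, adjusted p 1.56e-08, edgeR). With length and GC offsets ZBTB38 and MBD3 were the calls of this list, whereas with library totals MBD3 missed the fold threshold (-1.48) and 6 of the 9 rose.

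Of 13 NuRD subunits that partner MBD2, 1 rose and none fell (edgeR). At an adjusted p under 0.05 with no fold threshold 7 were higher and 3 lower, beside 45.9% and 35.7% of all tested genes. The median log2 fold change of 0.61 turned to -1.05 with length offsets and -0.19 with length and GC offsets, and in each of these fits 2 subunits were called lower. GATAD2B, which links MBD2 to the remodeller, rose from 11.5 ± 3.32 to 35.9 ± 0.823 CPM (log2 fold change 1.63, adjusted p 8.77e-06, edgeR). Its log2 fold change was just past the threshold and fell short of it without parental replicate 2 (1.39) and in DESeq2 (1.52). In DESeq2 MTA2 was called lower instead. Of 16 partners of active demethylation, 13 were tested, 1 rose and 2 fell. The median was -0.88, beside 0.32 for all tested genes. It was 0.01 with length and GC offsets, beside -0.05 for all tested genes. With library totals none fell, and the median was 0.04, beside 1.241 for all tested genes. OGT, the O-GlcNAc transferase that binds TET proteins, rose from 17.6 ± 1.51 to 162 ± 15.3 CPM (log2 3.20, adjusted p 3.27e-09, edgeR). IDH2, the mitochondrial enzyme that makes the TET cosubstrate 2-oxoglutarate, fell from 303 ± 21.8 to 95.2 ± 8.18 CPM (log2 fold change -1.67, adjusted p 9.63e-08, edgeR), and missed the fold threshold with at least 10 counts in every library (-1.47) and with library totals (-0.75). SMUG1, a DNA glycosylase, fell from 69.5 ± 10.2 to 22.7 ± 2.29 CPM (log2 fold change -1.61, adjusted p 7.20e-07, edgeR), and missed the fold threshold without parental replicate 2 (-1.52), without p85βKR-AA replicate 1 (-1.57) or without p85βKR-AA replicate 2 (-1.55), as it did with no filter (-1.56), at least 10 counts in every library (-1.42) and library totals (-0.68). With length and GC offsets neither OGT (1.05) nor IDH2 nor SMUG1 was called.

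Genes that DNA methylation is known to silence were called in both directions. Of 24 germline genes, 20 were too low to be tested and 5 had no count in any library. Of the 4 tested, 1 rose and 2 fell, with a median of -1.71. MAGEA1, a cancer-testis antigen, had no counts in parental libraries and 21.1 ± 1.14 CPM in p85βKR-AA libraries, at least 96.5-fold higher taking 3 counts per library as the floor. MAGEA3 fell from 52.3 ± 3.47 to 8.85 ± 0.0962 CPM (log2 fold change -2.56, adjusted p 1.13e-08, edgeR), and MAGEA6 from 3.68 ± 0.388 to 0.380 ± 0.0732 CPM (log2 fold change -3.24, adjusted p 6.02e-07, edgeR). MAGEA3 and MAGEA6 are near-identical copies, and reads may be split between them.

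Of 35 genes often methylated in colorectal cancer, 24 were tested, 11 rose and 5 fell, with a median of 0.38. SDC2, a syndecan used as a stool DNA methylation marker, had no counts in parental libraries and 20.4 ± 2.46 CPM in p85βKR-AA libraries, at least 93.6-fold higher by the same floor. VIM, which also belongs to the mesenchymal markers, rose from 0.803 ± 0.182 to 1772 ± 70.1 CPM (log2 fold change 11.10, SE 0.21, adjusted p 8.71e-12, edgeR). CDKN2A fell from 54.1 ± 7.43 to 1.68 ± 0.319 CPM (log2 fold change -5.005, adjusted p 1.77e-09, edgeR), and the DNA repair gene MGMT from 71.5 ± 14.8 to 14.03 ± 1.198 CPM (log2 fold change -2.35, adjusted p 6.94e-08, edgeR, but -1.41 and under the fold threshold with library totals). With length and GC offsets 8 rose and 3 fell, beside 13.8% and 9.91% of all genes, SDC2, VIM and CDKN2A among them. SFRP1, SFRP2, WIF1, NEUROG1 and BMP3 had no counts in any library.

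UHRF1 and DNMT1 are transcribed mainly in S phase, so genes of DNA replication and the cell cycle are given beside them. Of 22 such genes, all tested, 2 rose and 9 fell, with a median log2 fold change of -1.42, and their summed level was 4241 to 4671 CPM in parental and 1820 to 1897 CPM in p85βKR-AA libraries. The licensing factor CDT1 fell from 282 ± 28.01 to 43.7 ± 4.32 CPM (log2 fold change -2.69, adjusted p 6.62e-09, edgeR), and the helicase subunit MCM5 from 455 ± 42.5 to 73.6 ± 6.35 CPM (log2 fold change -2.63, adjusted p 6.25e-09, edgeR). The 2 that rose were MKI67, a proliferation marker of 12716 bases (log2 2.42, adjusted p 9.18e-06, edgeR), and POLA1, the catalytic subunit of DNA polymerase alpha (log2 2.61, adjusted p 7.17e-07, edgeR). With length and GC offsets neither was called (0.16 for MKI67 and 0.37 for POLA1), and 7 genes fell. The part of the S phase genes in the levels of UHRF1 and DNMT1 was not tested.

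Promoter sequence was read for one feature of replication genes. The E2F words TTTCCCGC, TTTCGCGC, TTTGCCGC and TTTGGCGC were searched on both strands, overlaps included, in RefSeq windows of 300 bases, 250 before and 50 after each start. They occurred in 3.31% of the 35116 windows, and among the 8 members in DNMT1 and UHRF1 only. A stretch around 1 match in each is given with the word in capitals, for DNMT1 at chr19:10194924-10194982 (minus strand) and for UHRF1 at chr19:4909460-4909519 (plus strand) of GRCh38.p14.
DNMT1: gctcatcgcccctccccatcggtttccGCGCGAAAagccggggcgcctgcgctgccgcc
UHRF1: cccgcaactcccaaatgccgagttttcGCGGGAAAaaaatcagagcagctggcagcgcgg
The word began 2 bases before the start in DNMT1 and 14 bases before it in UHRF1. A match describes these letters only, and no binding was measured.

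For each member, the tested gene with the most similar pattern was found from log2 values (CPM plus 0.1) over the 6 libraries, by the root mean square difference after centring. It was SATB1 for TET1 (0.113), NRIP1 for TET2 (0.0980), SCAF8 for TET3 (0.0668), NCAPD2 for DNMT1 (0.0552), KIAA1671 for DNMT3A (0.0209), ZNF503 for DNMT3B (0.0581) and ZNF692 for MBD2 (0.0391). For UHRF1 it was ENSG00000260643, which has no symbol of its own in the annotation (0.0648). Within a difference of 0.25 there were 6 tested genes for TET2, 12 for TET1 and 65 for TET3. For UHRF1 there were 517 and for MBD2 1476. The values were centred but not scaled, so these numbers also depend on the size of the change and on low counts. They do not show that the patterns of TET1 and TET2 are particular to them.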

How the data were processed

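Libraries were grouped by the genotype in the labels. The authors deposited expected counts, that is estimated counts of reads per Ensembl gene without normalization, in 1 table for the 6 libraries together with a gene length in bases. Per the labels, libraries were made with a TruSeq RNA kit, which does not mark strand, and the submitters' processing notes name HISAT2 2.1.0, RSEM 1.3.1, DESeq2 1.24.0 and hg18. The study trimmed reads with SeqPrep and Sickle. The annotation behind the counts is not given in the sources used here, and symbols, positions and GC content were taken by identifier from GENCODE release 44 mapped to GRCh37. The counts were rounded to whole numbers, filtered with filterByExpr (minimum count 10, total 15), scaled by TMM and fitted with the quasi-likelihood test of edgeR 4.0.16 (R 4.3.3), parental cells being the reference and p-values adjusted by Benjamini-Hochberg. The thresholds, a 3-fold change and an adjusted p under 0.01, are the study's. SE is the log2 fold change divided by the root of F. Offsets came from splines with 5 degrees of freedom (MASS). Scripts were tested on simulated data. The alternatives were DESeq2 1.42.0, library totals, other filters and thresholds, offsets, a replicate block and each library left out.

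The members and lists were chosen with earlier results of these data known. All 8 members are named. Of each list, the 2 called genes of largest log2 fold change in each direction are named. These had at least 10 counts in every library of a group. Others were named after their values were seen. They are TRDMT1, MTA2, DNMT3L, DPPA3, CDX1, KRT18, KRT19, TUBB3, FN1, TWIST1, COL1A2, SPARC, THY1, PDGFRA and the genes without counts. Intervals and floors of 3 counts cover counting error only.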

Additional observations from a re-analysis of the deposited data

How the results depend on the processing

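TET1, TET2 and TET3 were called in every fit but those with length or with length and GC offsets and that with at least 10 counts in every library, which left TET1 and TET2 untested. Among the members and the list genes named for their largest fold changes, directions reversed as follows. With library totals they reversed for DNMT3B (0.58), UHRF1 (0.16) and MBD2 (0.86), and with at least 10 counts in every library for MBD2 (0.13). With length offsets they reversed for DNMT1 (-0.82) and DNMT3A (-0.069), and with length and GC offsets for USP7 (-0.028) and ZBTB33 (-0.017). TRDMT1, named after its values were seen, was higher under TMM and called lower with length and GC offsets. The main test called 4597 genes up and 2825 down, and 23 up and 20 down in the 7 lists. Library totals called 7052 up and 973 down, and 36 and 5 in the lists. At least 10 counts in every library left 1 member, 2898 genes and 13 list genes up. Length offsets gave 2997 genes and 14 list genes up. Length and GC offsets gave 1 member, 2190 genes and 11 list genes up, and 1576 genes down. An adjusted p under 0.05 alone gave 5 members up and 1 down, 7373 and 5738 genes, and 39 and 43 list genes. A test against a 3-fold change gave 2974 and 1779 genes, and 12 list genes down. Of the calls made, 61.9% were up with TMM, 57.6% with DESeq2, 87.9% with library totals, 50% with length offsets and 58.2% with length and GC offsets. Leaving out each library gave 4404 to 4783 genes up and 2774 to 2992 down. The cause of these changes was not tested.

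The replicate numbers did not pair the libraries: deviations of same-numbered libraries correlated at -0.14, 0.12 and -0.04. With the number as a replicate block, 3 members were up and 0 down, with 4626 genes up and 2827 down (4618 and 2823 with robust moderation). In the block fit, edgeR's prior degrees of freedom were infinite, so its p-values for single genes are not given.

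TET1 and TET2 had 6 and 26 parental counts in all, so their fold changes carry the largest errors of the 8. Strand was not recorded, so reads of overlapping genes on opposite strands cannot be told apart.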
